A study of Mus musculus with 10 samples.

Results

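Serum amyloid A and related acute-phase genes were followed in the infrarenal aorta of mice with an elastase-induced abdominal aortic aneurysm. The set held 9 genes of 35527 gene names on the array, Saa1, Saa2, Saa3, Saa4, Ptx3, Apcs, Orm1, Orm2 and Hp, each measured by 1 probe. They were picked for their names and for the large rise of Saa3 between these same groups, so their differences between groups are given as a description and without a test. Male 10-week-old C57BL/6J mice had the aorta infused for 5 min at 100 mmHg with saline (sham) or with saline containing type I porcine pancreatic elastase (PPE) at 1.5 U per mL, and the infused segment was taken at 7 days. Each group held 5 mice with 1 unpooled aorta per array, and both groups shared the ligature, the aortotomy and the pressurized infusion. No untreated aorta entered the comparison. On each array 500 ng of aortic RNA was labelled red (Cy5) and hybridized with a green (Cy3) universal mouse reference, an RNA pooled from cell lines. A value is therefore a log2 ratio of aorta over reference, with dim probes drawn towards 0 by an offset added to both channels.

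The acute-phase response is the change in plasma proteins that follows injury or infection. Interleukins 1 and 6 are its best-known inducers, and the liver is its main source, although fat, macrophages and vascular cells can make some of the same proteins. SAA1 and SAA2 are apolipoproteins of high-density lipoprotein that the liver secretes in inflammation. SAA3 is the form that mouse tissues outside the liver make, among them macrophages and adipocytes, and SAA4 is the constitutive form. PTX3 is a long pentraxin made locally by macrophages and vascular cells, and APCS (serum amyloid P) is the short pentraxin that acts as an acute-phase protein in mice. ORM1 and ORM2 are orosomucoids, which bind small lipophilic molecules, and HP (haptoglobin) binds free haemoglobin.

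The 4 Saa genes lie side by side on chromosome 7, Saa1 and Saa2 are near-identical copies, and Orm1 and Orm2 are close relatives. The probe sequences of Saa3 and Saa1, the members with the largest differences, and of both Orm genes are shown. Each probe was 60 bases long. Positions are those of the array files in build mm9. The Saa3 probe lay at chr7:53970389-53970448 and the Saa1 probe at chr7:53996070-53996129, both on the minus strand. The Orm2 probe lay at chr4:63024979-63025038, on the plus strand. The listed interval of the Orm1 probe, chr4:63006483-63007090, spanned 608 bases on the plus strand, so the probe joins separate stretches of the genome.
Saa3: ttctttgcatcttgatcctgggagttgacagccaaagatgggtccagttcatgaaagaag
Saa1: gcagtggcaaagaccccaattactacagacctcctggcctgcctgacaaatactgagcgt
Orm1: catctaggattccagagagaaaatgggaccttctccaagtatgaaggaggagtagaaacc
Orm2: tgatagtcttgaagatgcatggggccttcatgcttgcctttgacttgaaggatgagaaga

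No other probe of the array shared a run of 20 bases, on either strand, with any of the 9 probes. The Saa2 probe was at chr7:54009622-54009681, on the plus strand, and the Saa4 probe at chr7:53983662-53983721, on the minus strand. The Ptx3 probe was at chr3:66029245-66029304, the Hp probe at chr8:112099045-112099104 and the Apcs probe at chr1:174824959-174825018. How much RNA of Saa2 binds the Saa1 probe, or the reverse, was not tested. The accession given for each of the 9 probes is a transcript of the same symbol in RefSeq. The gene table lists Saa2 among the older names of Saa1 and Saa1 among those of Saa2.

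The promoters of the 3 Saa genes with the larger differences are shown next, because Saa1 and Saa2 can be compared there letter by letter. They are the 250 bases before the transcript start in RefSeq, build GRCm38.p6, at chr7:46715677-46715926 (Saa3, minus strand), chr7:46742981-46743230 (Saa1, minus strand) and chr7:46751583-46751832 (Saa2, plus strand). Capitals mark matches to TTNNGNAA, a pattern bound by C/EBP factors, or to GGGNNNNNCC, a loose form of the NF-kappaB pattern, each searched on both strands.
Saa3: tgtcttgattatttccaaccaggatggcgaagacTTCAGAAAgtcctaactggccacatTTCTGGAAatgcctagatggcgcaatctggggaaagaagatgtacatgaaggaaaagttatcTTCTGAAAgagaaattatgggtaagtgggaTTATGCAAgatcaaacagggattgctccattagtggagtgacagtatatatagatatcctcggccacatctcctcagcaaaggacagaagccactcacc
Saa1: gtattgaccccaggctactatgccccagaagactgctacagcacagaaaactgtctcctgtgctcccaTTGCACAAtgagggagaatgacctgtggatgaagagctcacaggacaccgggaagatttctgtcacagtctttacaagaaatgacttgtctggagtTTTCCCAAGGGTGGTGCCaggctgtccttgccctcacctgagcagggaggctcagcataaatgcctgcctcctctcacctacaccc
Saa2: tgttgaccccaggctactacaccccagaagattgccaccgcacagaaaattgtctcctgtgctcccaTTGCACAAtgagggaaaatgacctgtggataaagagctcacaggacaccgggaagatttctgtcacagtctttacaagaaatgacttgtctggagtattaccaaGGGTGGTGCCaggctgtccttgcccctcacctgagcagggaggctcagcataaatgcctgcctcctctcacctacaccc

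Over windows of 300 bases that run 50 bases past the start, the Saa1 and Saa2 promoters were 95.3% identical, with 12 mismatched and 2 gapped positions. The Saa3 window was 50.9% identical to that of Saa1 and 50.2% identical to that of Saa2. The Saa3 window held 4 matches to the C/EBP pattern, the Saa1 window 2 and the Saa2 window 1. Both copies shared the C/EBP match TTGCACAA and the loose NF-kappaB match GGGTGGTGCC. The second C/EBP match of Saa1, TTTCCCAA, begins 86 bases before its start, runs up to the GGGTGGTGCC match and had no counterpart in Saa2. The patterns are common, since 40.7% of 32851 promoter windows held the C/EBP pattern and 50.8% the loose NF-kappaB pattern. A STAT pattern, TTCNNNGAA, was in 8.3% of all windows and in none of the 4 Saa windows. These matches are a description of the letters and no evidence of binding.

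The arrays differed in quality. Between 37.6% (sham 5) and 65.8% (PPE 1) of spots had a red signal above background, and PPE 5 had 45.8%. Arrays sham 1, PPE 1 and PPE 2 shared slide 1, which alone was scanned on a second day. A further slide, slide 2, carried both sham 2 with sham 3 and PPE 3 with PPE 4, and the other 3 arrays were each on a slide of their own. Differences are therefore also given within slides 1 and 2. Smooth muscle genes, which mark the aortic wall, were above background on all 10 arrays for all 6 genes listed. At an adjusted p under 0.01, 4 of the 6 were lower in PPE, where 9.86% of all 22520 gene names tested were lower. Myh11 (-0.74) and Des (-1.03) did not pass. With each array centred on its median, Tagln, Acta2, Smtn and Cnn1 lost their calls (adjusted p = 0.133, 0.289, 0.539 and 0.59). The mean log2 ratio of these 6 genes ran from 3.61 to 4.44 in sham and from 1.99 to 3.27 in PPE.

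Saa3 and Saa1 stood far apart between the groups. Saa2 and Ptx3 were higher in PPE by smaller amounts, and Saa4, Apcs, Orm1, Orm2 and Hp overlapped between the groups. Of the 9 probes, 8 had a red signal above background on at least 5 arrays and entered the fit across all probes, Saa2 and Ptx3 mainly through the PPE arrays. Over all 30836 probes fitted, 12.8% were higher and 9.15% lower in PPE at an adjusted p under 0.01. In 13.9% of probes every PPE array lay above every sham array, as it did for Saa3, Saa1, Saa2 and Ptx3. Because the genes were chosen on this contrast, no calls are given for them and nothing is read from this separation.

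**Figure D1:**
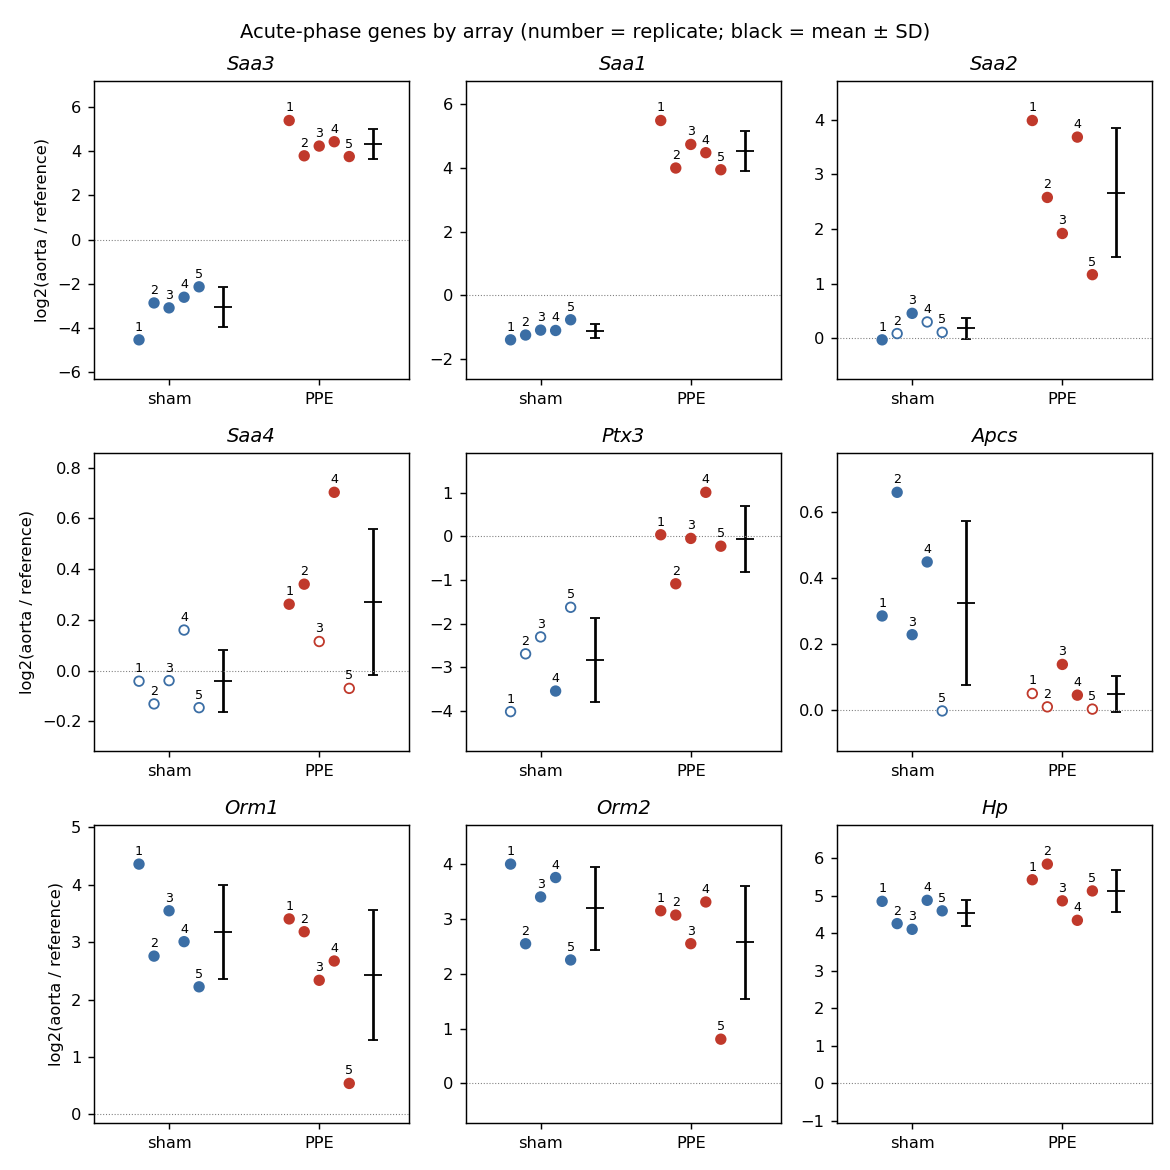
Log2 ratio of aorta over reference for each of the 9 genes on every array, with sham in blue and PPE in red, numbers for replicates, open circles where the red signal was not above background, and black bars for the mean ± SD (n = 5). The 2 groups lie apart for Saa3, Saa1, Saa2 and Ptx3 and overlap for the other 5 genes, and PPE 5 is the lowest array for Orm1 and Orm2.

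Saa3 encodes the locally made serum amyloid. Its log2 ratio was -4.54, -2.87, -3.09, -2.61 and -2.14 on sham 1 to sham 5. On PPE 1 to PPE 5 it was 5.39, 3.79, 4.23, 4.43 and 3.76. Every sham aorta thus had less Saa3 signal than the cell line reference and every PPE aorta had more, and the nearest arrays of the groups were 5.89 apart. The means were -3.05 ± 0.90 in sham and 4.32 ± 0.66 in PPE (SD, n = 5 each). The difference was 7.37 with an SE of 0.43, a fold of 165, and it ranked first from the top among all probes fitted. Sham 1 was the lowest sham array and PPE 1 the highest PPE array, and both were on slide 1. The difference was accordingly 9.12 within slide 1 and 7.31 within slide 2. In the channels taken separately, the red signal differed by 7.18 on the log2 scale and the green reference by -0.19.

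Saa1, an acute-phase gene best known from the liver, had log2 ratios of -1.40, -1.25, -1.10, -1.11 and -0.77 on sham 1 to sham 5. They were 5.49, 3.999, 4.74, 4.48 and 3.95 on PPE 1 to PPE 5. The groups were again apart, with 4.72 between the nearest arrays, and PPE 1 was again the highest. The sham arrays spread less for Saa1 (SD 0.23) than for Saa3 (SD 0.90), though each SD rests on 5 arrays and the 2 were not compared by a test. The mean was -1.13 in sham and 4.53 ± 0.63 in PPE, a difference of 5.66 with an SE of 0.26, or a fold of 50.5. It was 6.15 within slide 1 and 5.79 within slide 2. The probe was above background on all 10 arrays in both channels.

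Saa2, the near-identical copy of Saa1, was dim in sham. Its log2 ratio was -0.029, 0.086, 0.46, 0.30 and 0.11 on sham 1 to sham 5, and the red signal was above background on 2 of these arrays. On PPE 1 to PPE 5 it was 3.99, 2.58, 1.92, 3.68 and 1.17, and the signal was above background on all 5. All PPE arrays were higher than all sham arrays, but PPE 5 was only 0.71 above sham 3. The PPE arrays also spread widely, with a mean of 2.67 ± 1.18 against 0.18 ± 0.19 in sham. The difference was 2.48 with an SE of 0.46, and it was 3.31 within slide 1 and 2.53 within slide 2. The reference was above background for this probe on 6 of 10 arrays, so the ratio has a dim denominator. With the ratio deposited by the authors, the difference was 3.54. The probe entered the fit mainly through the PPE arrays.

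Saa4, the constitutive member, was not above background in any sham array and was so in 3 PPE arrays, and it was not fitted for a test. Its log2 ratio ran from -0.15 to 0.16 in sham and from -0.070 to 0.70 in PPE, and the groups overlapped. Since PPE 3 and PPE 5 were not above background either, no lower bound on the fold is given. The measured difference was 0.31 with an SE of 0.13. The deposited ratio gave a difference of 2.29.

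**Figure D2:**
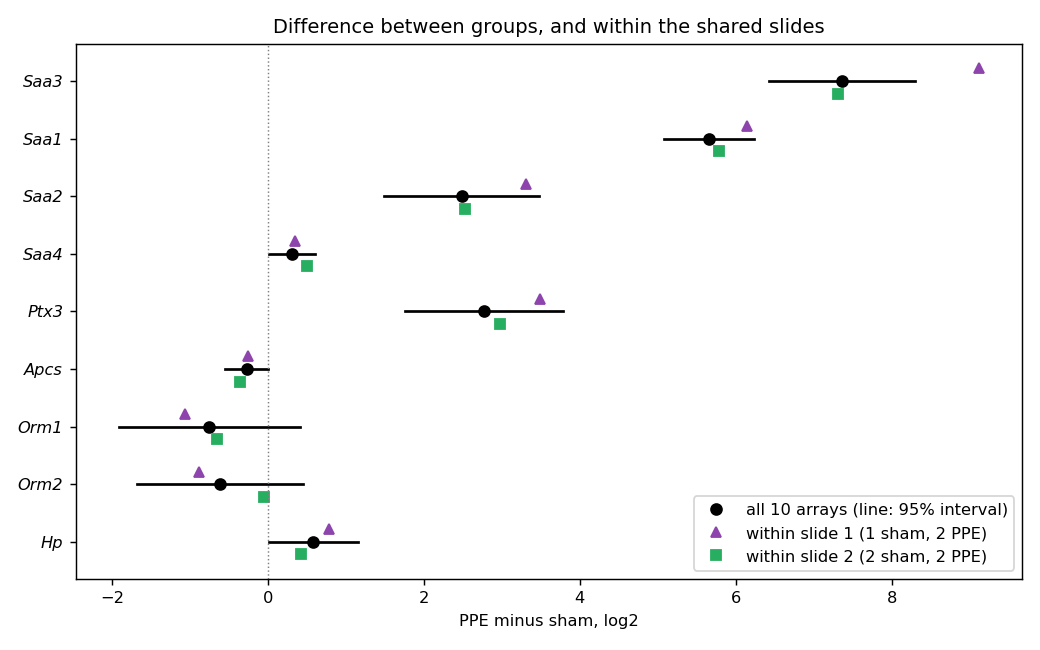
Difference between PPE and sham (log2) for the 9 genes over all 10 arrays, with its 95% interval, and within the 2 slides that held both groups (triangles, slide 1; squares, slide 2). The within-slide values keep the sign of the overall value for all 9 genes, and Saa3 reaches 9.12 on slide 1 against 7.31 on slide 2.

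Ptx3, the long pentraxin, lay well below the reference in sham. Its log2 ratio was -4.02, -2.69, -2.30, -3.55 and -1.63 on sham 1 to sham 5, with a red signal above background on sham 4 only. On PPE 1 to PPE 5 it was 0.038, -1.09, -0.046, 1.01 and -0.22, with all 5 above background. The groups did not overlap, and 0.54 separated sham 5 from PPE 2. The means were -2.84 ± 0.96 in sham and -0.062 ± 0.75 in PPE, a difference of 2.77 with an SE of 0.46. It was 3.49 within slide 1 and 2.98 within slide 2. The difference was 5.26 with the deposited ratio. Like Saa2, the probe entered the fit mainly through the PPE arrays.

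Apcs, the short pentraxin, was dim throughout and did not share the direction of Ptx3. It was above background on 4 sham and 2 PPE arrays. The log2 ratio ran from -0.0025 to 0.66 in sham and from 0.0030 to 0.14 in PPE, and the groups overlapped. The difference was -0.27 with an SE of 0.12 (95% interval -0.55 to -0.0035), and it was -0.98 with the deposited ratio.

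Among the relatives and partners of the pentraxins, 5 of 8 listed genes were tested, with 1 higher and none lower. Tnfaip6, whose product binds PTX3 in hyaluronan-rich matrix, rose by 1.38 with an SE of 0.26 (adjusted p = 0.0015). C1qa, C1qb and C1qc, the chains of the complement protein that pentraxins can bind, differed by 0.43, 1.25 and 0.52 and did not pass (adjusted p = 0.353, 0.0295 and 0.268). With the slide as a block C1qb passed (adjusted p = 0.00236), which made 2 genes of the list higher, and the red channel alone gave 4. Nptx2, a neuronal pentraxin, differed by -0.30 and did not pass. Crp, the other short pentraxin, was not above background on enough arrays to be tested. The median of the 5 was 0.52, against 0.021 over all 22520 gene names tested, of which 13.7% were higher and 9.86% lower. These shares are the background for every list and marker count given here.

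Orm1 and Orm2, the orosomucoids, were measured above background on every array and did not share the pattern of the Saa genes. Orm1 had log2 ratios of 4.36, 2.76, 3.55, 3.01 and 2.22 on sham 1 to sham 5. On PPE 1 to PPE 5 they were 3.41, 3.18, 2.34, 2.67 and 0.54. The groups overlapped except for PPE 5, which lay below all other arrays. The difference was -0.75 with an SE of 0.53, and its 95% interval, from -1.91 to 0.41, spans 0.

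Orm2 had log2 ratios of 4.002, 2.55, 3.40, 3.76 and 2.25 on sham 1 to sham 5. On PPE 1 to PPE 5 they were 3.15, 3.07, 2.55, 3.31 and 0.81. The order of the arrays was much like that for Orm1, with sham 1 highest and PPE 5 lowest. The difference was -0.61 with an SE of 0.49 (95% interval -1.68 to 0.45). Without PPE 5 it was -0.17 for Orm2 and -0.28 for Orm1, so 1 array set most of its size. Without sham 1 it was -0.41 and -0.46. PPE 5 had the second-lowest share of red spots above background, and the part of this in the Orm values was not tested. The related Orm3, whose promoter window was 86.2% identical to that of Orm2, differed by -0.67 and did not pass (adjusted p = 0.212).

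Hp, the haemoglobin-binding haptoglobin, overlapped between the groups and depended on the scaling. Its log2 ratio was 4.85, 4.26, 4.10, 4.88 and 4.60 on sham 1 to sham 5. On PPE 1 to PPE 5 it was 5.42, 5.84, 4.86, 4.34 and 5.13. PPE 3 and PPE 4 lay within the sham range and the other 3 PPE arrays above it. The means were 4.54 ± 0.35 and 5.12 ± 0.57, a difference of 0.58 with an SE of 0.26 (95% interval 0.011 to 1.16). The green reference, the same RNA on every array, was itself 0.68 higher on PPE arrays at this probe, more than for any other member, and the red signal alone differed by 1.26. Centring each array on its median in place of the intensity-dependent correction gave 1.29.

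**Figure D3:**
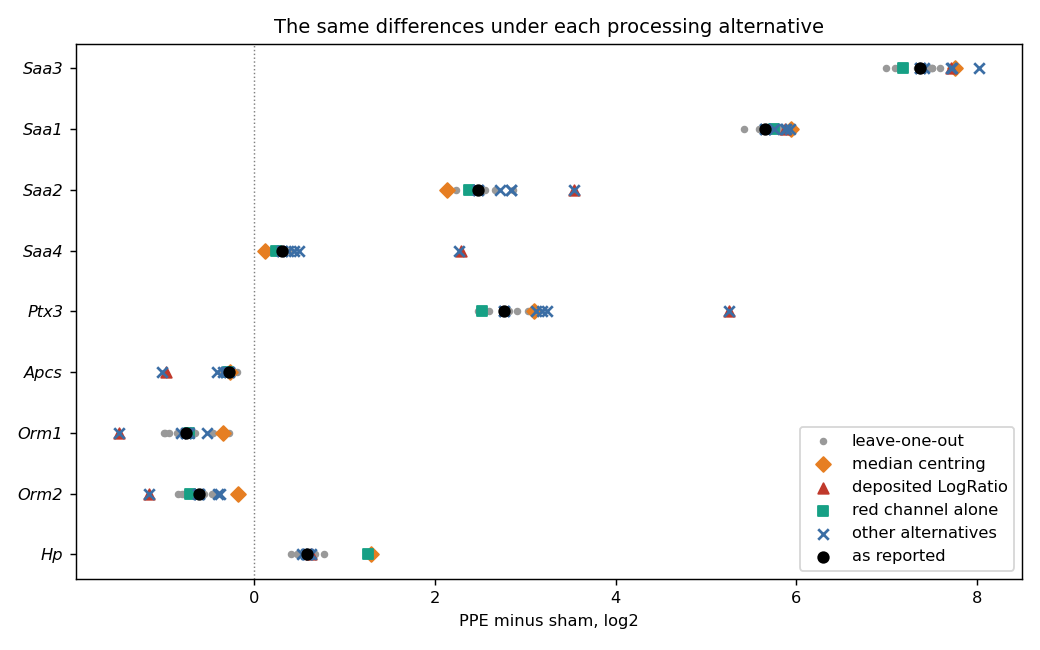
Difference between PPE and sham (log2) for each gene as reported (black) and under the alternatives, with single arrays left out in grey, median centring as diamonds, the deposited ratio as triangles, the red channel alone as squares and the rest as crosses. Each gene keeps its sign throughout, Saa3 stays between 6.99 and 8.03 and Saa1 between 5.42 and 5.94, and the deposited ratio moves Ptx3 to 5.26 and Saa4 to 2.29.

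Of the genes that handle haemoglobin and haem, where haptoglobin acts first, 2 of 7 tested were higher and none was lower. Hmox1, haem oxygenase 1, rose by 2.34 with an SE of 0.21 (adjusted p = 7.82e-06). Ftl1, the light chain of the iron store ferritin, rose by 1.05 with an SE of 0.11 (adjusted p = 2.47e-05). Cd163, the macrophage receptor for haptoglobin bound to haemoglobin, differed by -0.46 and did not pass (adjusted p = 0.0533). Neither did Hpx (0.75), Slc40a1 (0.73), Lrp1 (0.15) or Fth1 (0.090). The median of the 7 was 0.73.

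Of 8 cytokines that induce the acute-phase response, 6 were tested, 4 rose and 1 fell, with a median of 1.67. The 4 that rose, Il1b, Il6, Tnf and Osm, were above background on 2, 0, 2 and 1 sham arrays and on all 5 PPE arrays, so they passed the filter mainly through PPE. Among probes above background on all 10 arrays, 0 inducing cytokines were higher and 1 was lower. Il1b rose by 5.80 with an SE of 0.23 (adjusted p = 1.61e-07). Il6 was not above background on any sham array and was so on all 5 PPE arrays. In the red channel Il6 was at least 16-fold higher in PPE. It entered the fit through the PPE arrays alone, so no p is given. Tnf rose by 2.18 and Osm, oncostatin M, by 1.15. Ctf1, cardiotrophin 1, fell by 0.82, and Il11 differed by 0.65 and did not pass. Il1a and Lif were not above background on enough arrays to be tested.

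Of 14 receptors and signal factors downstream of these cytokines, all were tested, 9 rose and 1 fell, with a median of 0.87. Socs3, a feedback inhibitor induced by IL-6, rose by 2.09 with an SE of 0.20 (adjusted p = 1.3e-05). Il1r1, the IL-1 receptor, rose by 1.62, Osmr by 1.36 and Jak1 by 1.28. Of the C/EBP factors, Cebpa was 0.84 lower (adjusted p = 0.00774), Cebpb 0.92 higher (adjusted p = 0.00612) and Cebpd, at 0.46, did not pass. The calls for Cebpa and Cebpb were lost in 7 and 8 of the 10 fits that each left out 1 array. With the slide as a block, Cebpb was 0.67 higher and did not pass (adjusted p = 0.0749). Il6st (0.48), Lifr (-0.12) and Rela (0.022) did not pass.

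Of 7 receptors reported to bind SAA, 6 were tested, 4 rose and 1 fell, with a median of 0.93. Fpr2, a formyl peptide receptor of neutrophils and macrophages, was not above background on any sham array. In the red channel Fpr2 was at least 28-fold higher in PPE, while the ratio to the reference gave 25.7-fold. It too entered the fit through the PPE arrays alone. Tlr2 rose by 2.83 with an SE of 0.25 (adjusted p = 7.25e-06). P2rx7 rose by 1.05 and Scarb1, a receptor for high-density lipoprotein, by 0.80. Cd36, a scavenger receptor that fat cells also carry, fell by 1.17 (adjusted p = 0.00843), a call that 8 of the 10 fits without 1 array lost. Tlr4 differed by 0.24 and did not pass.

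Among 21 other acute-phase genes, 16 were tested, 8 rose and none fell, with a median of 1.09. Cd14, a co-receptor for endotoxin, rose by 3.30 with an SE of 0.41 (adjusted p = 9.75e-05). Lcn2, an iron-sequestering lipocalin, rose by 2.89. Il1rn, the IL-1 receptor antagonist, was above background in PPE alone, through which it entered the fit. Il1rn was at least 6-fold higher in the red channel, while the ratio to the reference gave 5.52-fold. Mt2, a metallothionein, rose by 2.24. The 8 that did not pass were Steap4 (1.32), Cp (0.73), Mt1 (0.41), Lrg1 (0.27), Serping1 (0.056), Itih3 (-0.45), Itih4 (-0.47) and Orm3. With the slide as a block, Steap4 (adjusted p = 0.00192) and Cp (adjusted p = 0.002) passed as higher, and Itih3 passed as lower with the deposited ratio (adjusted p = 0.00475). The calls for Lbp and Serpina3n were lost in 10 and 7 of the alternatives. Both were lost with the deposited ratio, which gave 6 genes of this list higher and 1 lower. The liver genes Fga, Fgb and Fgg, which encode fibrinogen, were not above background on enough arrays to be tested, nor were A2m and Hamp. Over the 6 lists together, 28 genes rose and 3 fell, while 13.7% of all 22520 gene names tested were higher and 9.86% lower. With each array centred on its median, the counts for the lists were 3 and 0, and Il1b, Il6 and Mt2 were the 3. Among probes above background on all 10 arrays they were 20 and 3.

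**Figure D4:**
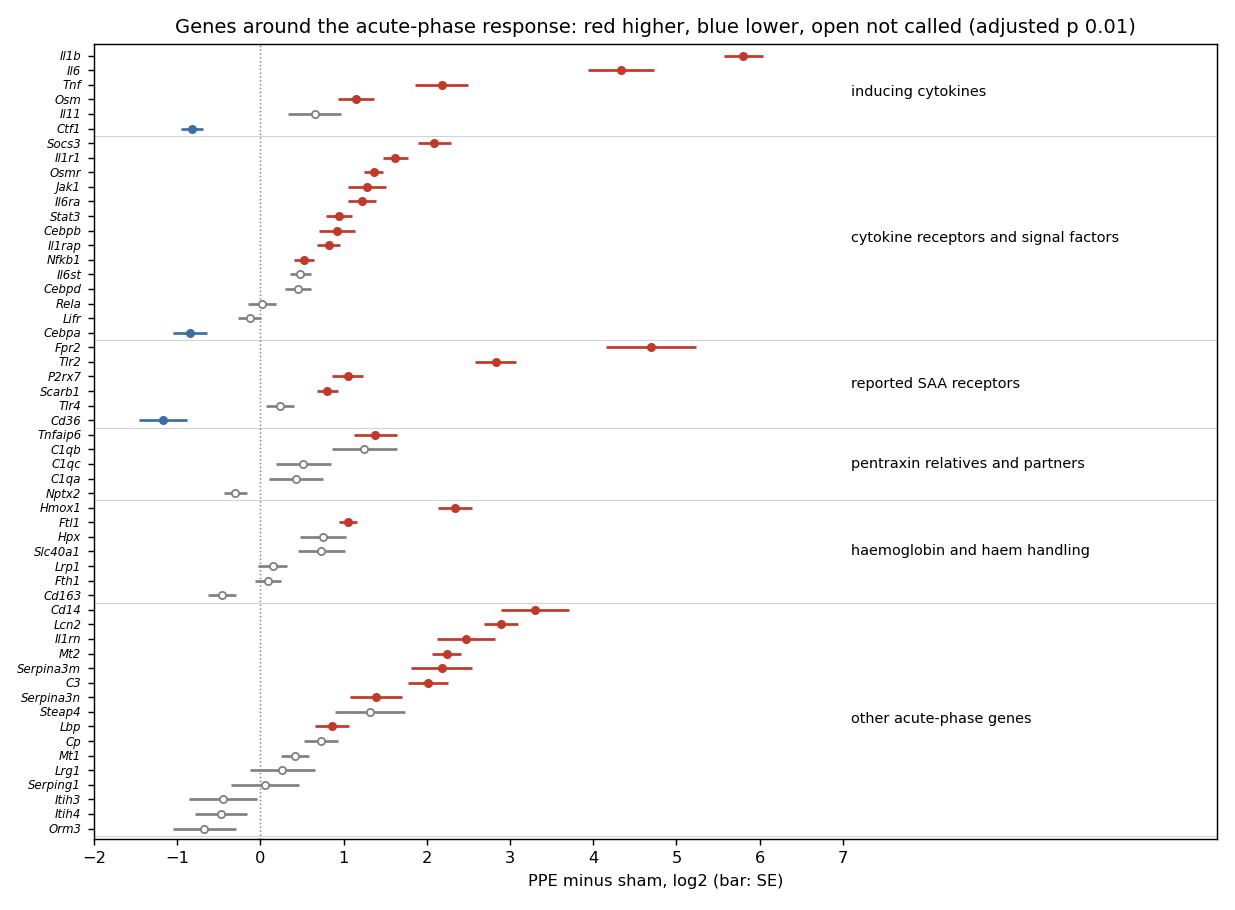
Difference between PPE and sham (log2, bars are SE) for the tested genes of the 6 lists, in red where higher and in blue where lower at an adjusted p under 0.01, and open where not called. Il1b, at 5.80, lies farthest right, and the orosomucoid gene Orm3, at -0.67, is lowest among the other acute-phase genes.

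Leukocyte markers were also higher in PPE, where 13.7% of all gene names tested were higher. In bulk tissue, a change in the number of cells of a type and a change of RNA per cell cannot be told apart. All 7 macrophage markers tested were higher in PPE, and their mean log2 ratio ran from 0.96 to 1.48 in sham and from 2.92 to 4.02 in PPE. With the deposited ratio, Lyz2 (1.10) and Mrc1 (0.58) did not pass (adjusted p = 0.0127 and 0.236). Of 10 neutrophil markers, 8 were higher, and the mean of the 10 ran from 0.38 to 0.49 in sham and from 2.52 to 3.96 in PPE. Elane (0.59) and Csf3r (-0.075) did not pass (adjusted p = 0.0928 and 0.676), although both were above background on all 10 arrays. The summed red signal, as scanned and not normalized between arrays, was 6586 to 34470 in sham and 31420 to 526900 in PPE for the macrophage markers. For the neutrophil markers it was 9796 to 67650 and 24240 to 262200. Every macrophage marker was above background on all 10 arrays. The neutrophil gene Ngp was so on none of the sham arrays, Ltf, Mpo and Cxcr2 on 1 each and Retnlg on 3. These neutrophil genes were so on all 5 PPE arrays and passed the filter mainly through PPE, which bears on the neutrophil count and mean. The part of leukocytes in the Saa and Ptx3 values was not tested.

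Most hepatocyte markers were near background. Of 9 hepatocyte markers, Alb, Ttr, Apoa1, Apoh, F2 and Cps1 were above background on at most 1 array of either group. Of the other 3, Apoa2 was lower in PPE by 0.95, and Ahsg and Ambp, at 0.95 and 1.51, did not pass. With the slide as a block both passed as higher, Ahsg by 1.33 (adjusted p = 0.000321) and Ambp by 1.99 (adjusted p = 0.00395). Ambp was above background on 1 sham array and on all 5 PPE arrays, so it entered the fit mainly through PPE. The summed red signal of Apoa2, Ahsg and Ambp, not normalized between arrays, was 679.9 to 3429 in sham and 408.1 to 5065 in PPE.

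Adipocyte markers are of interest because fat makes Saa3, orosomucoids and haptoglobin. Of 9 tested, 3 were lower, none was higher and 6 did not pass, with a median of -0.72. With each array centred on its median none was called, and Cfd, Adipoq, Cidec and Retn turned positive (0.23, 0.35, 0.30 and 0.39). With the slide as a block, Plin1 and Cfd passed too, as lower. Their mean log2 ratio ran from 4.45 to 5.62 in sham and from 3.32 to 4.88 in PPE. Ucp1 and Cidea, genes of brown fat, fell by 2.94 and 2.40, calls lost with the slide as a block and with the deposited ratio. Lipe fell by 1.27, a call that 7 of the 10 fits without 1 array lost, while Adipoq, at -0.45, did not pass. All but Lep were above background on every array. Sham 1, the highest array for Orm1 and Orm2, also had the highest adipocyte mean. PPE 5, the lowest for both Orm genes, had an adipocyte mean of 3.39. The lowest adipocyte mean was 3.32 on PPE 3, where Orm1 and Orm2 were 2.34 and 2.55. The part of fat in the Orm and Hp values was not tested. Erythroid markers, listed beside Hp, had a mean of 3.81 to 4.86 in sham and 2.47 to 3.84 in PPE, with 2 of 3 lower. The call for Hba-a1 was lost in 7 of the 10 fits without 1 array, and Alas2, which fell by 1.78, differed by -0.37 with the deposited ratio and did not pass (adjusted p = 0.561).

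Of 5 mesothelial markers, Wt1 rose by 2.54 (adjusted p = 0.00012), and the other 4, from -0.19 to 0.30, did not pass. Of 5 fibroblast markers, Col1a1 rose by 2.04 and Pdgfra by 0.64, the latter a call that 9 of the 10 fits without 1 array lost, and the other 3 did not pass. The mean of the fibroblast markers ran from 2.82 to 3.43 in sham and from 3.43 to 4.47 in PPE. None of 5 endothelial markers passed, where 13.7% of all gene names tested were higher and 9.86% lower by the same rule. Cdh5, VE-cadherin, differed by 1.17 (adjusted p = 0.0173), and it passed with the slide as a block (adjusted p = 0.00649) and without sham 1 (adjusted p = 0.00368). With each array centred on its median, 8 of the 28 marker genes called over all lists were still called. They were the macrophage genes Emr1 and Itgax, the neutrophil genes S100a8, Camp, Mpo, Retnlg and Cxcr2, and Wt1. Of these, Mpo, Cxcr2, Retnlg and Wt1 were above background on 1, 1, 3 and 3 sham arrays and on all 5 PPE arrays.

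The genes whose pattern lay nearest to that of Saa3 over the 10 arrays were found by the root mean square difference of log2 ratios after subtracting each gene's sham mean. The nearest was Cxcl5, a neutrophil-attracting chemokine, at 0.62, and its difference between groups was 7.06. Clec4d, a myeloid C-type lectin, followed at 1.23, Il1b at 1.25, Saa1 at 1.29 and Cxcl10, an interferon-induced chemokine, at 1.41. Their differences between groups were 5.74, 5.80, 5.66 and 5.53. Since the measure is in log2 units and Saa3 had the top difference, it favours genes with large differences. PPE 1 was the highest PPE array for Saa3, Saa1, Clec4d, Il1b and Cxcl10, and PPE 4 for Cxcl5.

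**Figure D5:**
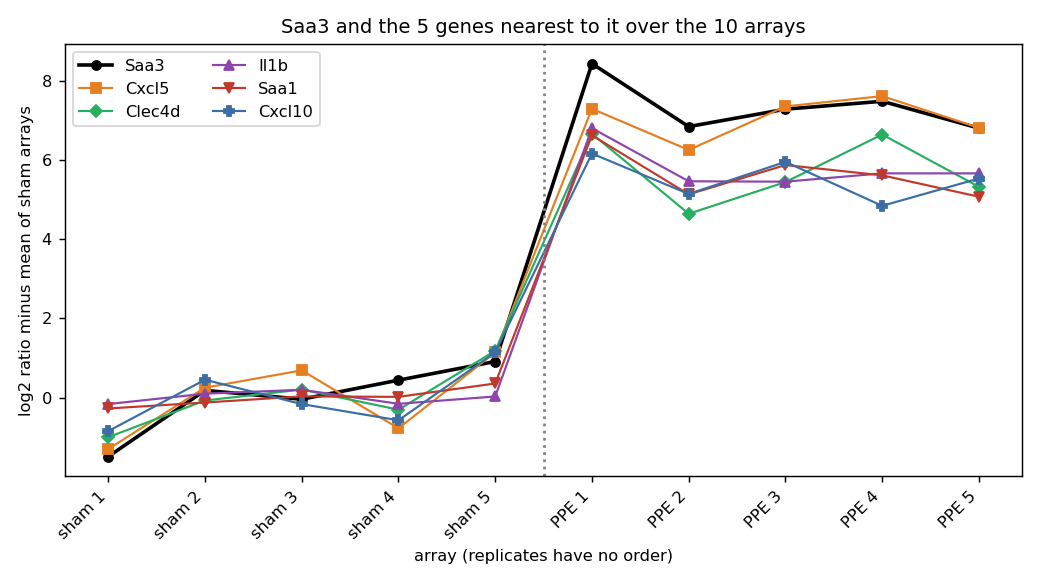
Log2 ratio minus the mean of the sham arrays for Saa3 and the 5 nearest genes on each of the 10 arrays, sham left of the dotted line and PPE right of it. Cxcl5 follows Saa3 most closely, with a root mean square difference of 0.62, and Saa3 reaches 8.43 on PPE 1.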

How the data were processed

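Aortic RNA of 5 sham and 5 PPE mice was measured on 2-colour arrays without dye swap. The authors read spots with Agilent Feature Extraction 10.7.3.1, and the study's methods state that outlying arrays were removed. Spot signals and local backgrounds were deposited as linear intensity values. A LogRatio column, deposited as the log10 of red over green, was converted to log2. The authors' matrix of log2 values equalled processed red over green on 100% of spots within 1e-04. With limma 3.58.1 in R 4.3.3, signals were background corrected (normexp, offset 50) and loess normalized within arrays only. Control and outlier spots were left out. Probes with red signal above background on at least 5 of 10 arrays (30836 of 55681) were compared by limma, two-sided and unpaired, with Benjamini-Hochberg adjustment over all of them and a threshold of 0.01. The study's test, SAM, was not run. A gene was represented by its brightest tested probe. The number of arrays limits the precision.

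The members and gene lists were chosen with earlier results of these data known, and 1 listed gene is not reported here. Named were all members, up to 4 called genes of each list by size, its tested genes that were not called, and the 5 genes nearest to Saa3. Others, such as Cebpb and untested genes, were named after their values were seen. A fold called "at least" is a lower bound from the red channel alone, where 1 group was not above background. It can exceed the fold from the ratio. RefSeq (GRCm38.p6) promoters were found for 7 of 9 members, without Orm1 and Hp, and aligned with Biopython 1.88. The limma script was tested on simulated data. Alternatives covered normalization, background, filter, slide and replicate blocks, and leaving out arrays.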

Additional observations from a re-analysis of the deposited data

Results flagged for a closer look

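Of 36 groups of 5 arrays examined (the 9 genes and 9 marker lists in each group), 1 held an array far from the others, and chance alone flags about 5% of groups. The mean log2 ratio of the 6 smooth muscle markers was 3.27 on PPE 2, against 1.99 to 2.16 on the other PPE arrays. None of the 9 acute-phase genes had an array as far from its group. PPE 2 had Saa3 and Saa1 log2 ratios of 3.79 and 3.999, within the range of the other PPE arrays.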

How the results depend on the processing

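All 9 differences kept their sign under every alternative. Centring arrays on the median moved the median of all probes by 0.334 on the log2 scale and left 409 probes higher and 8 lower (98.1% higher, against 58.2% of calls as reported), 3 list genes higher and 0 lower, and a difference of 1.29 for Hp. The red channel alone, chosen after seeing the data for single genes, gave 1.26 for Hp. The deposited LogRatio gave 3.54 for Saa2, 2.29 for Saa4, 5.26 for Ptx3 and -0.98 for Apcs, and the series matrix gave 3.54, 2.27, 5.26 and -1.02; the cause was not tested. With no filter, 1 list gene was lower, against 3 as reported, and with signal on all 10 arrays 20 were higher, against 28, with 0 of the 4 inducing cytokines. Leaving out single arrays gave 1 to 3 list genes lower, with 1 when sham 2, sham 4, PPE 3, PPE 4 or PPE 5 was left out. Leaving out sham 5 and PPE 5 together, chosen after seeing the data, gave 7.73 for Saa3, and 26 list genes higher and 2 lower. With the slide as a block, Saa3 was 8.03. With the replicate block, Saa3 stayed at 7.37 and 3851 probes were higher and 2878 lower, and among list and marker genes Cebpb and Pdgfra lost their calls while Cdh5, Des, Lum and Steap4 gained one. Same-numbered arrays correlated at 0.294, -0.293, 0.167, -0.14 and 0.523 in their deviations from the group means, so the numbers were not taken to pair the mice, and of the sham arrays only sham 5 correlated best with its own number. Signal over background limits Saa2, Saa4, Ptx3 and Apcs.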
